A study of Homo sapiens with 4 samples.

Results

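Chromosome 3 was described as a network of Hi-C contacts among its genomic bins, with detail for 2 gene-poor blocks (hg19 coordinates), 1 on the short arm (chr3:78999983-88001901), called the ROBO1-CADM2 block, and 1 on the long arm (chr3:160000097-167999375), called the SI-BCHE block, after genes they hold. The members were all 977 bins of the chromosome out of 14444 bins in the genome, each about 200 kb long, and every pair of them with a deposited contact score. The 2 blocks were chosen from the measured contact maps, because their contact had been seen to rise in senescent cells, so their behaviour between OIS and Grow is a description and supports nothing. The files held 4 maps of IMR90, a line of normal human lung fibroblasts, all carrying a retroviral ER:HRAS(G12V) construct (pLNCX2), in which 4-hydroxytamoxifen (4OHT) switches on oncogenic RAS. Grow cells were proliferating and received no 4OHT, and OIS cells (labelled RIS, for RAS-induced senescence) were taken after 6 days in 100 nM 4OHT. Grow-shA1 and OIS-shA1 cells also carried pMSCV miR shHMGA1, a short hairpin RNA against the chromatin protein HMGA1, from 1 hairpin vector. Cells were grown in DMEM with 10% FBS at 5% oxygen. The labels give genotype, treatment and culture for the 2 shA1 groups, and for the Grow and OIS maps these are as the study describes its model.

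Each shA1 map pooled 2 samples of the series. The Grow and OIS maps belonged to none of its samples and came from data that the laboratory had produced before, so a difference between a map with shA1 and a map without it is also a difference between data sets and the 2 cannot be told apart. Such a difference within the growing or the senescent state also reuses a map on which the 2 blocks were chosen. For the 2 blocks it is therefore a description too. There was 1 map per condition and no map per replicate, so no difference given here has a replicate check and no test was run. SDs below are over pairs of bins within a map or between 2 maps and do not measure the spread between cultures. Hi-C does not measure the level of HMGA1, and the knockdown was not checked here.

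Hi-C ligates DNA fragments that are near each other in the nucleus, and sequencing then counts the ligated pairs. Across a chromosome, gene-rich active stretches (the A compartment) meet other active stretches, and gene-poor inactive stretches (the B compartment) meet other inactive stretches. In RAS-induced senescence of fibroblasts, inactive chromatin is known to gather into dense nuclear foci, and HMGA1, which binds A/T-rich DNA in the minor groove through its AT-hooks, is a known component of those foci. A contact network draws a link between bins whose contact changed strongly, and its k-core is the set of bins that each have at least k links to other bins of the set. Bins of a core need not all be linked to each other.

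The values were scores of contact corrected for distance, on a log scale whose base was not given in the sources used here: 0 is the contact usual for that distance, and a positive score is more contact than usual. In all, 424630 pairs on chromosome 3 were listed for Grow, 399103 for Grow-shA1, 379906 for OIS and 371005 for OIS-shA1, so that the Grow map was the fullest and the OIS-shA1 map the thinnest. Of the 977 bins, 950 had at least 50% of their pairs listed in every map and were kept. The 27 bins left out held a run of 14 bins at 47.4 to 50.2 Mb in 3p21 with 72 protein-coding gene starts, of which 64.7% of pairs were listed in Grow and 39.4% in OIS-shA1. The other large omission was the centromere bin at 90.5 to 93.5 Mb, for which no pair was listed. By the first principal component of the Grow map, 388 kept bins were A and 562 were B.

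The ROBO1-CADM2 block held 45 kept bins and the starts of only 7 protein-coding genes, and 42 of its bins were B in Grow. The SI-BCHE block held 40 kept bins and 20 gene starts, with 36 bins B. Any other gene-poor block was defined as a run of at least 10 kept bins with at most 5 gene starts in each bin and the 5 bins to either side of it. Gaps of up to 2 other bins were allowed. The 2 detailed blocks were set by position, and the start of the SI-BCHE block, with 9 gene starts at 160 to 161 Mb, did not meet this rule. Besides the 2 detailed blocks there were 12 gene-poor blocks with 200 bins, and 3 gene-rich blocks (at least 25 gene starts in the same window) with 37 bins served as contrast. Some of the other gene-poor blocks were not mainly B in Grow. At 28.8 to 31.0 Mb 2 of 11 bins were B, at 65.0 to 68.0 Mb 7 of 15, at 102.4 to 107.2 Mb 11 of 24 and at 173.4 to 177.8 Mb 10 of 22.

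The bins were cut where the study cut its DNA, at the HindIII site AAGCTT, and such a site lay within 10 bases of all 976 bin edges read from GRCh37. Shown for the ROBO1 bin and the SI bin, which no other bin of their blocks exceeded in links, are their left edges, on the plus strand and with the HindIII site in capitals:
ROBO1 bin, left edge, chr3:79802830-79802869: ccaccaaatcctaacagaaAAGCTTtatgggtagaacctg
SI bin, left edge, chr3:164599978-164600017: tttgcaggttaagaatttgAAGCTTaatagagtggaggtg

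Both blocks were rich in A and T. Mean GC content was 35.02% over the bins of the ROBO1-CADM2 block and 35.7% over those of the SI-BCHE block, against 39.5% over the 950 kept bins (SD 3.79). Runs of 6 or more letters that were each A or T, the kind of sequence HMGA1 is known to bind (such a run reads as one on either strand), came to 25.6 and 24.7 per kb in the 2 blocks, 19.7 per kb over the kept bins (SD 4.33) and 12.5 to 14.9 per kb in the 3 gene-rich blocks. Below are 200-base stretches of 5 bins, plus strand of GRCh37, chosen to show this difference in letters: the stretch nearest the bin's middle that touched no exon and had the bin's own GC content (within 1 percentage point) and share of bases in such runs (within 1.5 points). Capitals mark the runs.
ROBO1 bin, ROBO1-CADM2 block, in the core, chr3:79900933-79901132: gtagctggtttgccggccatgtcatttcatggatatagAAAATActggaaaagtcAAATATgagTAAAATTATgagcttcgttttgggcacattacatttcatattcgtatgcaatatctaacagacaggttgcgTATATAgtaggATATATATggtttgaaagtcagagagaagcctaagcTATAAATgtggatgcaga
SI bin, SI-BCHE block, in the core, chr3:164699446-164699645: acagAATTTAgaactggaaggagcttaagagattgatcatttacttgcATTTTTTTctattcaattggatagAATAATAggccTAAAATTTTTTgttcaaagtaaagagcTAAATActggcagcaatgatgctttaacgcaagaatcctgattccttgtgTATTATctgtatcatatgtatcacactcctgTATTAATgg
VGLL3 bin, ROBO1-CADM2 block, outside the core, chr3:87099820-87100019: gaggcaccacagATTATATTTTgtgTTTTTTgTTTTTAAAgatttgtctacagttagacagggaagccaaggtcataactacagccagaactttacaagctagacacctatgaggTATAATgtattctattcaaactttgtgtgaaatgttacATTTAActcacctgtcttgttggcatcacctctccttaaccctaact
SMC4 bin, SI-BCHE block, outside the core, chr3:160100218-160100417: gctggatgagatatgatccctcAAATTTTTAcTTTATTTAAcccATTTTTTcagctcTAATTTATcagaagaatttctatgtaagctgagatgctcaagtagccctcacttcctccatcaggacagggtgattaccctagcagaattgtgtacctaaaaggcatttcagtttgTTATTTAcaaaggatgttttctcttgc
RASSF1 bin, gene-rich block, outside the core, chr3:50301997-50302196: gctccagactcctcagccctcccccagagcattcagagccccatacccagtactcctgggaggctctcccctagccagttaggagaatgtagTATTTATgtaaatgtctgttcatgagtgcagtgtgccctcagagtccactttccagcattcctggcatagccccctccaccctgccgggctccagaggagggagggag
The SI stretch lay in an intron of SI, the SMC4 stretch in an intron of IFT80 and of ENSG00000248710, and the other 3 lay in no annotated gene. The SI bin had the lowest GC content of all kept bins, 32.7%, and 29.1 A/T runs per kb, the most of all kept bins. The RASSF1 bin, with 17 gene starts, had the highest GC content, 56.6%, and 4.57 runs per kb. The SMC4 and VGLL3 bins lay between these, with 22.2 and 22.7 runs per kb.

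The first question was how the 2 detailed blocks met each other in each condition. Over the 1478 pairs listed in all maps, of 1800 possible, the mean score was 0.56 in Grow (SD 0.56 over pairs), 0.18 in Grow-shA1 (SD 0.44), 1.68 in OIS (SD 0.98) and 1.07 in OIS-shA1 (SD 0.81). Both maps with RAS lay above both maps without it, and within each state the shA1 map lay lower. OIS was higher than Grow by 1.12 (SD 0.67) and in 93.4% of the pairs, and OIS-shA1 was higher than Grow-shA1 by 0.90 (SD 0.71) and in 87.4%. The second of these comparisons shares no map with the first. With shA1 the contact was lower, by a difference of -0.61 in the senescent state and of -0.38 in the growing state, so that the change with RAS was smaller with shA1 (difference of differences -0.22). This last value changed sign, to 0.32 SDs, when each map was divided by its SD at each distance. Among the 91 pairs of gene-poor blocks this pair had the largest change with RAS both without and with shA1, and the lowest value of OIS-shA1 minus OIS.

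**Figure D1:**
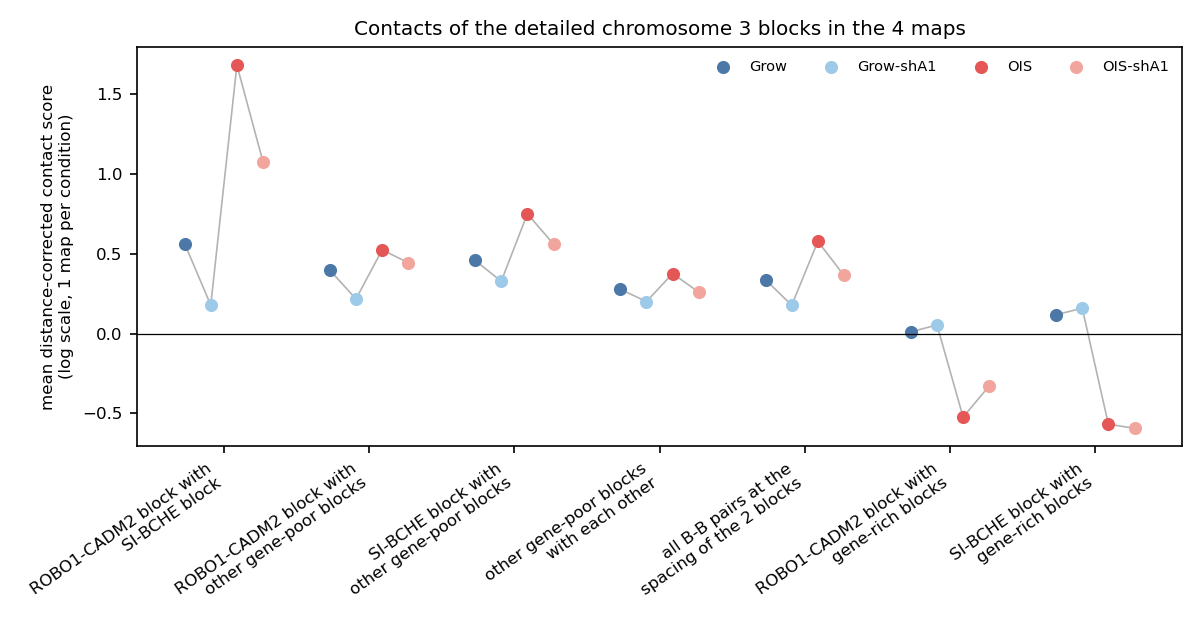
Mean distance-corrected contact score (log scale, vertical axis) for groups of pairs of chromosome 3 bins, with 1 point per map and no error bar because there was 1 map per condition. The ROBO1-CADM2 and SI-BCHE blocks scored 1.68 with each other in OIS against 0.56 in Grow, while both scored below 0 with the gene-rich blocks in OIS and OIS-shA1.

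All B-B pairs with the spacing of the 2 blocks, 72.2 to 88.8 Mb (12236 pairs), averaged 0.34 in Grow, 0.18 in Grow-shA1, 0.58 in OIS and 0.36 in OIS-shA1. Their OIS minus Grow difference of 0.24 was smaller than that of the 2 blocks, and their OIS-shA1 minus OIS difference was -0.21. These B-B pairs include those between the 2 blocks themselves, which raise the 0.24, so they are not a separate background. The scores were also more widely spread in senescent cells: over all pairs at this spacing the SD was 0.49 in Grow, 0.44 in Grow-shA1, 0.78 in OIS and 0.62 in OIS-shA1. With each map divided by its own SD at each distance, the 2 blocks still differed by 1.03 SDs between OIS and Grow and by 1.35 SDs between OIS-shA1 and Grow-shA1. On that scale Grow-shA1 minus Grow was larger in size, at -0.76 SDs, and OIS-shA1 minus OIS was -0.44 SDs.

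In squares of 1 Mb by 1 Mb, the contact between the blocks was uneven. The highest mean score in OIS, 3.05, belonged to the square of 83 to 84 Mb with 164 to 165 Mb, which scored 1.33 in Grow. The largest difference between OIS and Grow, 1.73, belonged to 80 to 81 Mb with 164 to 165 Mb (0.98 in Grow and 2.70 in OIS). By contrast, the gene-bearing end at 160 to 161 Mb stayed between -0.08 and 0.76 in OIS with every part of the other block. Of 68 squares between the blocks with at least 13 pairs listed in all maps, 64 were higher by 0.5 or more in OIS than in Grow and none was lower by as much. Over the genome 5.88% of such squares were higher and 10.7% lower by that amount, and on chromosome 3 6.09% were higher. From Grow-shA1 to OIS-shA1, 59 of the 68 squares were higher by 0.5 or more, against 5.19% over the genome (8.84% lower). From OIS to OIS-shA1, 47 of the 68 were lower by 0.5 or more, against 4.42% over the genome (2.02% higher). From Grow to Grow-shA1, 18 of 68 were lower, against 0.755% over the genome (0.172% higher). Since OIS minus Grow was used to choose the blocks, its count is given only as a description. The same holds for the counts from OIS to OIS-shA1 and from Grow to Grow-shA1, which reuse the OIS map and the Grow map.

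**Figure D2:**
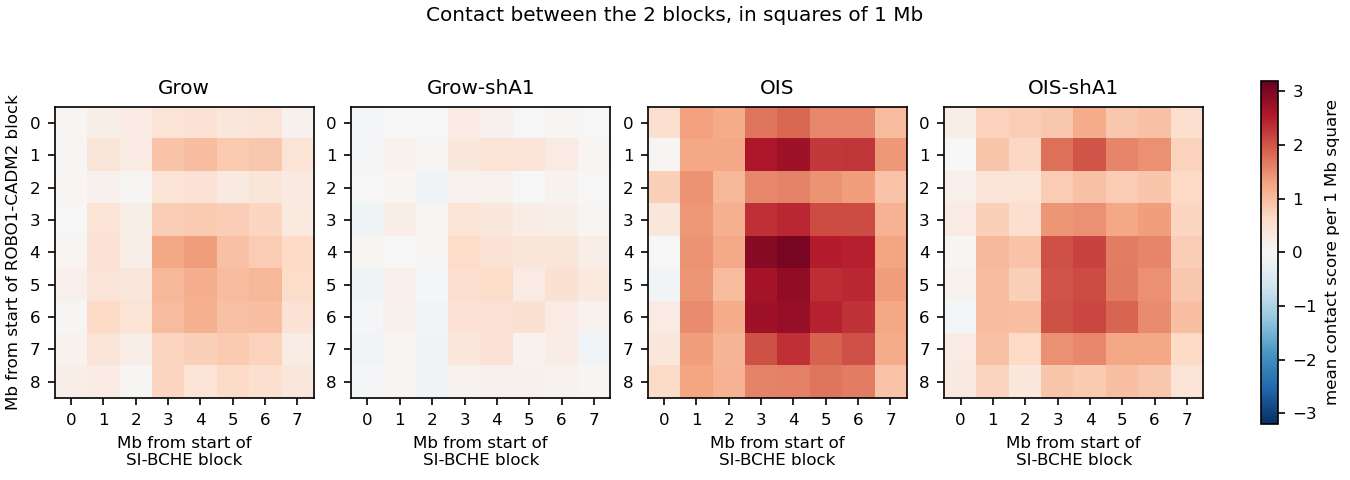
Mean contact score in each 1 Mb square between the ROBO1-CADM2 block (vertical axis, Mb from its start) and the SI-BCHE block (horizontal axis, Mb from its start) in the 4 maps, on 1 colour scale (red above 0, blue below 0). The square at 4 Mb and 4 Mb from the block starts scored 1.33 in Grow and 3.05 in OIS, and the column at the start of the SI-BCHE block stayed pale in all maps.

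In OIS the contact with the partner block stepped down at both ends of the long-arm block and at 1 end of the short-arm block. Towards its partner block, the first megabase of the SI-BCHE block scored 0.084 in Grow and 0.36 in OIS, and the megabase just outside it scored -0.16 and -0.18. At its other end the last megabase inside scored 0.38 in Grow and 1.13 in OIS, and the one just outside 0.039 and 0.36. On the short arm, the first megabase inside scored 0.29 in Grow and 1.36 in OIS, and the megabase before it 5.4e-05 and 0.65. The megabase after the short-arm block, 88 to 89 Mb, scored 0.44 in Grow and 1.36 in OIS, no lower than the last one inside it (0.40 and 1.31), so the contact did not step down at 88 Mb.

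The second question was which other gene-poor blocks joined in. With the 12 other gene-poor blocks pooled, the ROBO1-CADM2 block scored 0.40 in Grow, 0.22 in Grow-shA1, 0.52 in OIS and 0.44 in OIS-shA1 over 7754 pairs. That gave differences of 0.13 for OIS minus Grow and 0.23 for OIS-shA1 minus Grow-shA1. The first of these changed sign, to -0.043 SDs, when each map was divided by its SD at each distance. The SI-BCHE block scored 0.46, 0.33, 0.75 and 0.56 in Grow, Grow-shA1, OIS and OIS-shA1 over 5706 pairs, with differences of 0.29 for OIS minus Grow and 0.23 for OIS-shA1 minus Grow-shA1. The other gene-poor blocks scored 0.28, 0.20, 0.38 and 0.26 with each other, in the same order of maps.

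Behind these averages the partners differed widely. The block at 93.5 to 96.6 Mb, just beyond the centromere with PROS1 (protein S, an anticoagulant) and EPHA6 (an ephrin receptor), scored 1.00 with the SI-BCHE block in Grow, 0.54 in Grow-shA1, 1.82 in OIS and 1.38 in OIS-shA1. It ranked next after the 2 detailed blocks for the change with RAS, at 0.82 without shA1 and 0.83 with it. With the ROBO1-CADM2 block it scored 0.62, 0.28, 1.24 and 0.72. The block at 143.8 to 146.0 Mb, with PLOD2 (a collagen lysyl hydroxylase) and PLSCR4 (a phospholipid scramblase), scored 0.57, 0.25, 1.37 and 1.04 with the ROBO1-CADM2 block in the same order of maps. Here too the maps with RAS were higher by nearly the same amount without shA1 (0.80) and with it (0.79). With the SI-BCHE block, which is much nearer, it scored 1.90 in Grow already, and 1.68, 1.99 and 1.91 in Grow-shA1, OIS and OIS-shA1. The block at 102.4 to 107.2 Mb, with ALCAM (an adhesion molecule) and CBLB (a ubiquitin ligase), scored 0.54 in Grow and 1.13 in OIS with the SI-BCHE block, and 0.34 and 0.77 in the 2 shA1 maps.

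A few partners went the other way. The FHIT and PTPRG block at 59.6 to 62.8 Mb scored 0.22 with the ROBO1-CADM2 block in Grow, 0.26 in Grow-shA1, -0.16 in OIS and 0.22 in OIS-shA1. OIS stood apart from the other 3 maps. The block at 65.0 to 68.0 Mb, with MAGI1 (a junction scaffold) and LRIG1 (a regulator of growth factor receptors), scored -0.016, -0.042, -0.46 and -0.13 with it, again lowest in OIS. These 2 had the highest values of OIS-shA1 minus OIS of the 91 pairs of gene-poor blocks, at 0.38 and 0.34. The adjacent block at 74 to 79 Mb, with ROBO2 and CNTN3, scored 0.38, 0.23, 0.31 and 0.55 with the ROBO1-CADM2 block and was highest in OIS-shA1. Without this neighbour, the OIS-shA1 minus OIS difference of the ROBO1-CADM2 block with the other gene-poor blocks was -0.13 in place of -0.081.

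**Figure D3:**
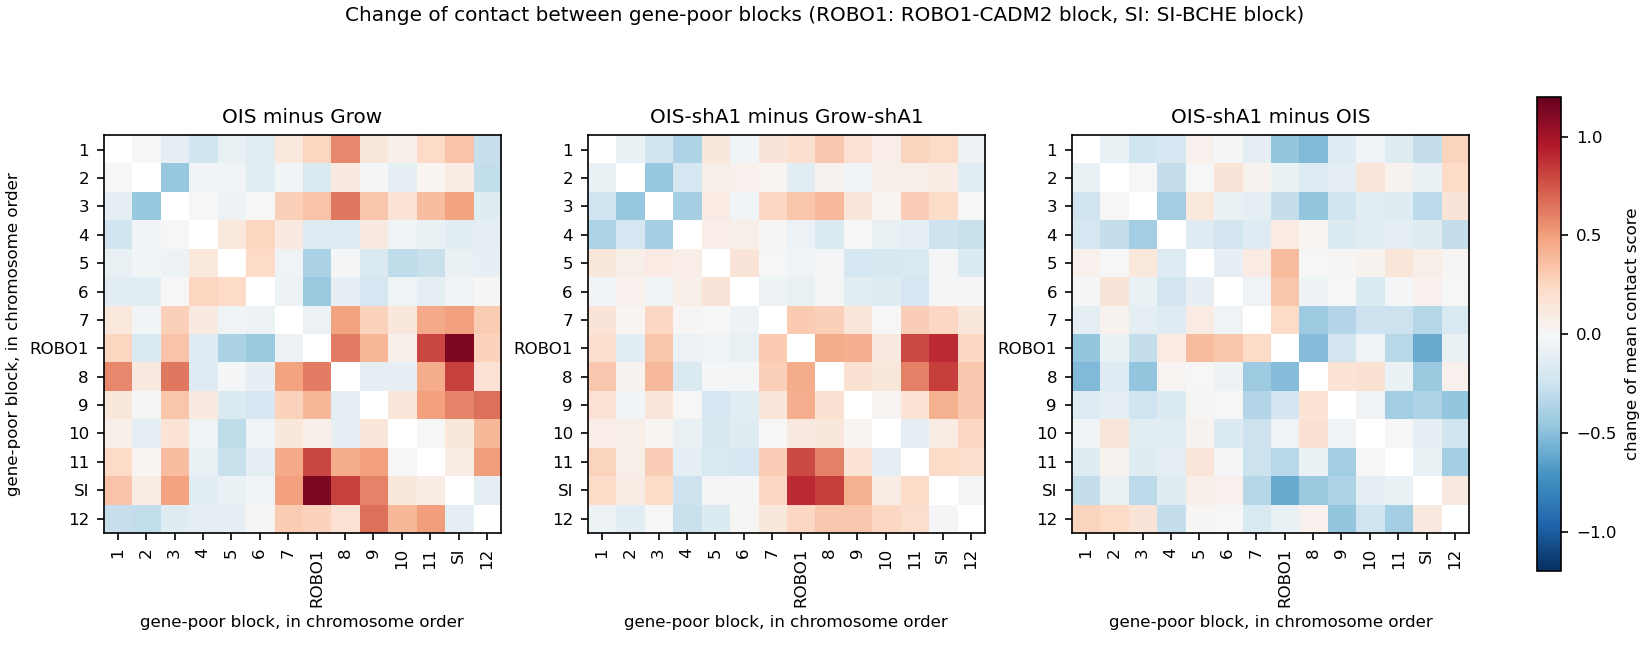
Change of the mean contact score (colour, red for higher and blue for lower) between each pair of the 14 gene-poor blocks of chromosome 3, in chromosome order on both axes, for 3 comparisons of maps. The square of the ROBO1-CADM2 block (axis label ROBO1) and the SI-BCHE block (axis label SI) had the largest positive value with RAS, 1.12 without and 0.90 with shA1, and the most negative value of OIS-shA1 minus OIS, -0.61.

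Counted in squares, 79 of 334 squares (23.7%) of the ROBO1-CADM2 block with other gene-poor blocks and 86 of 248 (34.7%) of the SI-BCHE block were higher by 0.5 or more in OIS than in Grow, against 5.88% over the genome. Lower by as much were 23 (6.89%) and 6 (2.42%), against 10.7%. From Grow-shA1 to OIS-shA1, 19.2% and 19.0% were higher, against 5.19%, and 0.299% and 1.61% were lower, against 8.84%. From OIS to OIS-shA1, 12.9% and 17.3% were lower, against 4.42%, and 3.59% and 0.806% were higher, against 2.02%.

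With the gene-rich blocks the direction was opposite. The ROBO1-CADM2 block scored 0.010 with them in Grow, 0.054 in Grow-shA1, -0.52 in OIS and -0.33 in OIS-shA1 (488 pairs). The SI-BCHE block scored 0.12, 0.16, -0.57 and -0.59 (379 pairs), so both maps with RAS lay below both maps without it. Its contact with the nearest gene-rich block, at 182.8 to 185.0 Mb, was 0.15 in Grow, 0.24 in Grow-shA1, -0.74 in OIS and -0.77 in OIS-shA1. The other gene-poor blocks scored -0.14, -0.20, -0.30 and -0.33 with the gene-rich blocks, so lower scores with RAS were not particular to the 2 detailed blocks. The gene-rich block at 50.2 to 53.6 Mb was itself mixed, with 6 of its 16 bins B in Grow. With all A bins the ROBO1-CADM2 block scored -0.50, -0.56, -0.66 and -0.54, and its differences with RAS were -0.16 without shA1 and 0.025 with it. The SI-BCHE block scored -0.074, -0.097, -0.40 and -0.34 with all A bins.

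Within each block, short-range contact was lower in OIS than in Grow. Pairs up to 2 Mb apart inside the ROBO1-CADM2 block scored 0.18 in Grow, 0.096 in Grow-shA1, -0.33 in OIS and 0.014 in OIS-shA1 (378 pairs). Inside the SI-BCHE block they scored 1.02, 0.94, 0.29 and 0.65 (330 pairs). In both blocks OIS was the lowest map, and OIS-shA1 lay between OIS and the maps without RAS. This was not particular to the 2 blocks. B-B pairs up to 2 Mb apart over the chromosome scored 0.61, 0.54, 0.30 and 0.41 in the same order of maps. Such pairs inside the block at 93.5 to 96.6 Mb scored 0.55, 0.53, -0.028 and 0.35. Inside the blocks at 59.6 to 62.8 Mb and 65.0 to 68.0 Mb they scored higher in OIS than in Grow. Pairs more than 2 Mb apart inside the ROBO1-CADM2 block scored 0.98, 0.67, 0.96 and 1.12, and inside the SI-BCHE block 1.31, 1.06, 0.91 and 1.27.

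The third question was whether the changed contacts formed a network. Linking the 1% of distal pairs (over 2 Mb apart) with the largest increase gave 2865 links in every comparison. For OIS minus Grow the smallest linked increase was 1.38, and the densest part had k = 13, meaning that each of its 43 bins was linked to at least 13 of the others. For OIS-shA1 minus Grow-shA1 k was 10, with 51 bins. In both comparisons of shA1 with no shA1, OIS-shA1 minus OIS first, k was 4, and that core took in 657 and 693 of the 950 kept bins, so it was no compact group. Of the 23 chromosomes, chromosome 3 had the second largest k for OIS minus Grow, after chromosome 1 with 15, and shared the largest with chromosome 1 for OIS-shA1 minus Grow-shA1. A chromosome with more bins has more links by this rule, so k is not compared at equal size. When each map was first divided by its SD at each distance, k was 6 for OIS minus Grow and 8 for OIS-shA1 minus Grow-shA1.

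All 43 core bins of the OIS minus Grow network were B in Grow and all lay in gene-poor blocks: 22 in the ROBO1-CADM2 block (79.6 to 80.8 Mb and 82.4 to 86.4 Mb), 20 in the SI-BCHE block (161.2 to 161.4 Mb and 162.8 to 167.2 Mb) and 1 in the block beyond the centromere, at 94.8 to 95.0 Mb. Of the 2865 links, 585 (20.4%) joined the 2 detailed blocks to each other, which is 39.6% of the 1478 pairs between them. No link joined 2 bins of the ROBO1-CADM2 block or 2 bins of the SI-BCHE block, so none of the core's links lay inside either block. With the other gene-poor blocks, 278 of 5706 pairs of the SI-BCHE block and 115 of 7754 pairs of the ROBO1-CADM2 block were links. The rule itself links 1% of all distal pairs, and the second count lay near that share. In the network of OIS-shA1 minus Grow-shA1, 355 links (12.4%) joined the 2 detailed blocks, and in that of OIS-shA1 minus OIS none did. The 2 RAS networks, which share no map, had 34 core bins in common, 79.1% of the first core and 66.7% of the second. The cores held 43 and 51 of the 950 kept bins. In the second core, 19 bins lay in the ROBO1-CADM2 block and 22 in the SI-BCHE block. Both cores thus lay mostly in blocks chosen on these data, and their overlap is a description. The second core reached farther beyond the centromere, with 6 bins at 94.8 to 96.6 Mb including the EPHA6 bin, and held 2 bins at 88.4 to 88.8 Mb, outside the short-arm block. Across the chromosome, 49.7% of the links of the OIS minus Grow network ran between the arms, and the median length of all its links was 68.0 Mb. Of distal pairs in general, 52607 of 124426 B-B pairs and 23305 of 59378 A-A pairs lay between the arms. The 585 links between the 2 detailed blocks all run between the arms by position.

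**Figure D4:**
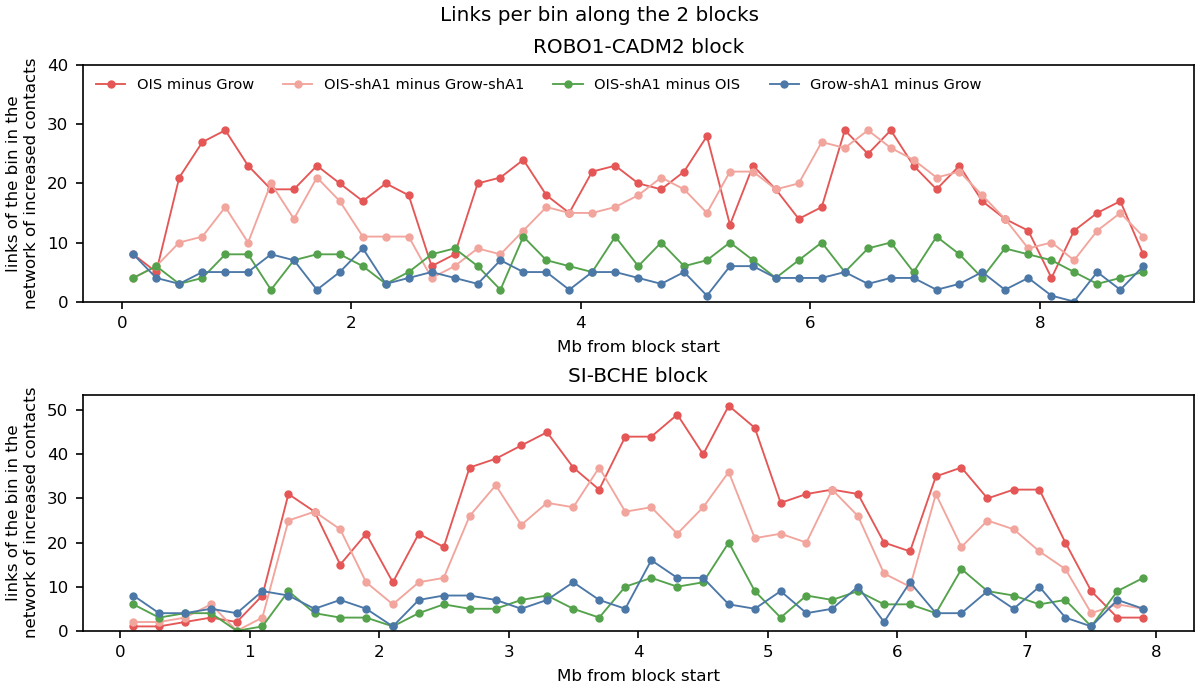
Number of links of each 200 kb bin (vertical axis) in the networks of increased contacts, by distance from the start of the ROBO1-CADM2 block (upper panel) and of the SI-BCHE block (lower panel), for 4 comparisons. In OIS minus Grow the SI bin had 51 links, while the SMC4 bin at the start of the same block had 1.

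In the SI-BCHE block the bin with the most links, 51, held the start of SI (sucrase-isomaltase of the gut, ENSG00000090402, chr3:164696686-164796284, minus strand). Its mean distal contact with B bins was 0.89 in Grow, 0.77 in Grow-shA1, 0.97 in OIS and 0.91 in OIS-shA1. The SLITRK3 bin (a synaptic membrane protein) had 46 links, the BCHE bin (butyrylcholinesterase) and the ZBBX and SERPINI2 bin 32 each, and the OTOL1 bin (otolin of the inner ear) 31. All of these were in the core. The gene-dense start of the block was not: the bin of IFT80 (ciliary transport) and SMC4 (a condensin subunit) had 1 link, as did the bin of TRIM59, KPNA4 (a nuclear import adaptor) and ARL14, and the bin of B3GALNT1 and NMD3 (export of the large ribosomal subunit) had 2. The first 2 of these bins were A in Grow. At the other end the bin of PDCD10 (a vascular signalling scaffold) and SERPINI1 (neuroserpin) had 9 links and the GOLIM4 bin (a Golgi protein) 3. The GOLIM4 bin was also A in Grow, with a compartment score of 0.017 there and 0.55 in OIS.

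In the ROBO1-CADM2 block the bin with the start of ROBO1 (an axon guidance receptor, ENSG00000169855, chr3:78646389-79817148, minus strand) had 29 links, as many as any bin of the block, and was in the core. The CADM2 bin (a synaptic adhesion molecule) had 16 links and k = 10, the GBE1 bin (the glycogen branching enzyme) 8, the bin of CHMP2B (membrane scission) and POU1F1 (a pituitary transcription factor) 12, and the HTR1F bin (a serotonin receptor) 8. The VGLL3 bin (a cofactor of TEAD transcription factors), with a compartment score of -0.19 in Grow near the border between A and B, had 4, the fewest of the block. Most core bins of the 2 blocks held no gene start at all, which was not particular to the core. Gene starts lay in only 6 of the 45 bins of the ROBO1-CADM2 block and 13 of the 40 bins of the SI-BCHE block.

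Core bins were poorer in GC than the other bins of the same blocks: 34.7% (SD 0.929, 43 bins) against 36.0% (SD 1.31, 43 bins). They held 26.2 A/T runs per kb against 24.3. The GC content of the core bins ran from 32.67% to 37.03%, and 282 kept bins lay in that range, 43 of them in the core and 239 outside it.

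**Figure D5:**
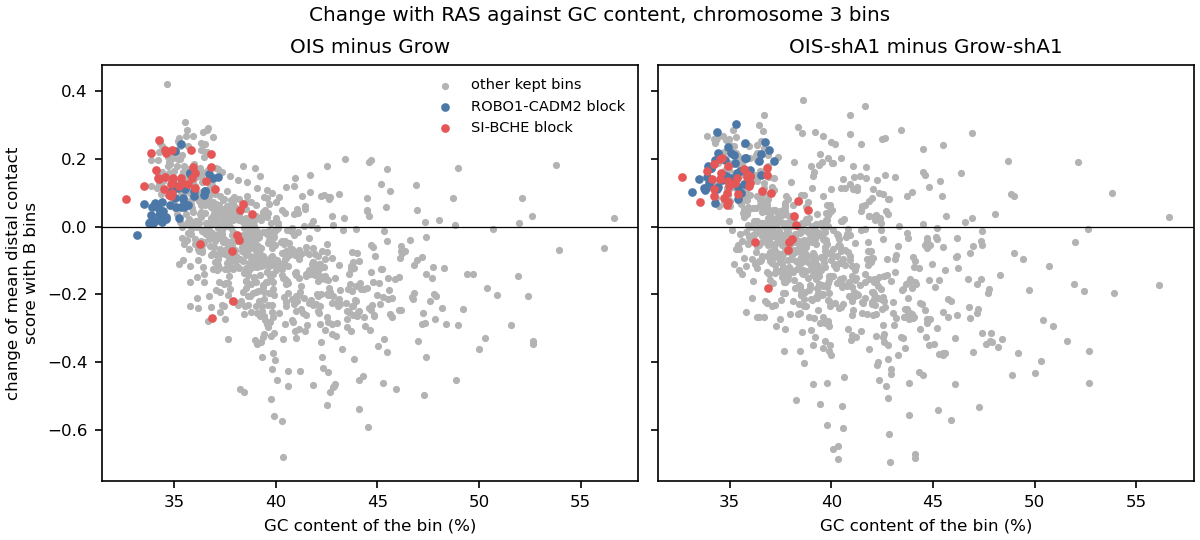
Change of the mean distal contact score with B bins (vertical axis) against GC content in percent (horizontal axis) for the 950 kept bins of chromosome 3, for the RAS comparison without shA1 (left) and with it (right), each point being 1 bin. Bins of low GC content lay higher, with r = -0.51 and r = -0.47.

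Over the 950 kept bins, the change of distal contact with B bins ran against GC content in both RAS comparisons (r = -0.51 for OIS minus Grow and -0.47 for OIS-shA1 minus Grow-shA1). It ran with GC content for Grow-shA1 minus Grow (r = 0.44) and OIS-shA1 minus OIS (r = 0.28). All bins share the same 4 maps, and neighbouring bins share base composition. Over the 562 B bins alone the values were -0.71, -0.72, 0.66 and 0.31. How far read coverage by base composition differed between the libraries was not tested.

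Gene lists placed the 2 blocks beside the rest of the chromosome. Of the 950 kept bins, 374 had more and 576 less distal contact with B bins in OIS than in Grow, with a median difference of -0.048. Of 12 bins with starts of long genes (mostly neuronal adhesion and guidance genes, with FHIT), all of them B, 8 were higher and 4 lower, with a median of 0.059, and of all 562 B bins 265 were higher, with a median of -0.015. The ROBO1 and CADM2 bins of this list, both higher (0.064 and 0.053), lie in a block chosen on these maps. The list is thus not separate from that choice, and the 562 B bins also include bins of the 2 blocks. EPHA6, LSAMP and NLGN1 had the largest differences, 0.18, 0.15 and 0.12. The 6 kept bins of cell cycle genes, all A, were all lower, with a median of -0.10. The 388 A bins in general had a median of -0.095, and 109 of them were higher, so the list lay near the level of A bins. The bin of ATR (the replication stress kinase) scored 0.13 in Grow, 0.080 in Grow-shA1, -0.071 in OIS and -0.13 in OIS-shA1. The CDC25A bin was not kept. Of 10 kept bins of fibroblast genes, 1 of them B and the others A, 3 were higher and 7 lower, with a median of -0.12. This list too lay near the level of A bins. WNT5A (a secreted Wnt ligand) had the largest positive difference, 0.20, with scores of -0.64, -0.68, -0.44 and -0.39 in the 4 maps in the same order. The COL7A1 and LAMB2 bins were not kept.

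The bins with the 3 largest differences of distal contact with B bins between OIS and Grow were not in the 2 blocks. The highest, at 104.4 to 104.6 Mb, scored -0.28 in Grow, -0.35 in Grow-shA1, 0.14 in OIS and -0.088 in OIS-shA1. Next came the ALCAM bin (-0.25, -0.30, 0.058 and -0.10) and a bin at 114.2 to 114.4 Mb (-0.63, -0.67, -0.34 and -0.34). The 3 lowest were at 156.0 to 156.2 Mb (0.038, 0.12, -0.64 and -0.56), at 15.4 to 15.6 Mb with METTL6, EAF1 and COLQ (-0.053, -0.24, -0.64 and -0.68) and at 155.8 to 156.0 Mb (0.16, 0.26, -0.41 and -0.38).

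Distal compartment strength, the mean of A-A and B-B scores minus the A-B score, was 0.61 in Grow, 0.62 in Grow-shA1, 0.70 in OIS and 0.69 in OIS-shA1. OIS minus Grow was 0.089, eleventh of 23 chromosomes, and OIS-shA1 minus OIS was -0.0054. The difference between OIS and Grow changed sign, to -0.012, when unlisted pairs counted as 0, and to -0.060 SDs when each map was divided by its SD at each distance. Distal A-B pairs scored -0.27 in Grow and -0.36 in OIS, B-B pairs 0.49 and 0.47, and A-A pairs 0.20 and 0.21. Between the arms B-B pairs went from 0.14 in Grow to 0.23 in OIS, while within the short arm they went from 0.73 to 0.62 and within the long arm from 0.76 to 0.68. Compartment scores of the kept bins correlated at r = 0.934 between Grow and OIS and at r = 0.985 between OIS and OIS-shA1. From Grow to OIS 94 bins left B for A, and 5 went the opposite way. The longest run of bins that passed to A covered 16.6 to 17.6 Mb, with DAZL (a germ cell RNA-binding protein) and PLCL2 (a phospholipase C-like protein). None of the 94 was in the core of the OIS minus Grow network, which held only 43 of the 562 B bins.

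The links of decreased contact were a different set. For OIS minus Grow, the network of the 1% largest decreases had k = 7 with 90 core bins, all on the long arm, and the median length of its links was 13.8 Mb. Of its links 52.0% joined A with B bins, where 102662 of all 286466 distal pairs were A-B. The SI-BCHE block, with 40 of the 950 kept bins, took part in 614 of the 2865 links. The ROBO1-CADM2 block, with 45 of them, took part in 206. None of the 1478 pairs between the 2 blocks was such a link. For Grow-shA1 minus Grow the corresponding core had k = 5 and 71 bins, all B, of which 56 lay in gene-poor blocks. Links of decrease between the 2 detailed blocks numbered 123 in that network and 80 in that of OIS-shA1 minus OIS. These were 8.32% and 5.41% of the pairs between the blocks, against 1% of all distal pairs. Both comparisons reuse a map on which the blocks were chosen.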

How the data were processed

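Hi-C libraries of IMR90 ER:HRAS(G12V) fibroblasts were made by in-nucleus ligation after HindIII digestion. Per the labels, reads were processed with HiC-Pro on hg19. The deposited values were scores made by the authors from ICE-balanced counts in bins of about 200 kb and corrected for distance, on a log scale of unstated base. The deposited bin edges are coordinates in base pairs, a unit other than a measurement. Read depth per map is not known from these scores, so no counting interval was given, and the number of listed pairs stands in for it. There were 4 maps, 1 per condition, so no test was run. The number of value columns of samples of other series was 0 by column name, but the Grow and OIS maps have no sample here and were used as whole maps.

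The members and gene lists were chosen with earlier results of these data known. Named genes were those with starts in the 2 detailed blocks and in the listed cell cycle, fibroblast and neuronal genes, plus the 3 highest and 3 lowest bins. Bins were kept with at least 50% of pairs listed in each map. Means were taken over pairs listed in all maps, distal meaning more than 2 Mb apart. Compartments came from the first principal component of each map, oriented by gene starts. Gene starts were from GENCODE on GRCh37. Networks linked the 1% of distal pairs with the largest change. Cores came from a purpose-written k-core routine, which gave the same core numbers as NetworkX 3.6.1 on random networks. Other steps used Python 3.11.15, NumPy 2.4.6, pandas 2.3.3, SciPy 1.17.1 and Matplotlib 3.10.9, and the procedures were tested on simulated data. Alternatives changed the scaling, centring, treatment of unlisted pairs, block rules and network size. The sequence of 1 further bin is not reported here.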

Additional observations from a re-analysis of the deposited data

Results flagged for a closer look

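Of the results, 3 had changes of opposite sign under the same contrast, each at least 0.1 in size, and none of the differences was tested, since there was 1 map per condition. Contact of the ROBO1-CADM2 block with its neighbour at 74 to 79 Mb differed with shA1 by -0.14 in Grow and by 0.23 in OIS, which are 0.378 apart. Distal contact inside the ROBO1-CADM2 block differed with shA1 by -0.31 in Grow and by 0.16 in OIS, which are 0.469 apart. Distal contact inside the SI-BCHE block differed with RAS by -0.40 without shA1 and by 0.21 with it, which are 0.609 apart. Each of these also sets a map of one data set against a map of another.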

How the results depend on the processing

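Of 124 alternatives to 20 results, 94 kept the direction and size, 22 moved the value and 8 reversed its sign. Contact between the ROBO1-CADM2 and SI-BCHE blocks kept its direction throughout, with OIS minus Grow from 0.979 to 1.30, but its change with RAS, with shA1 minus without, was -0.221 as reported and 0.315 with each map divided by its SD at each distance. No paired analysis was possible because there was 1 map per condition, with the replicates pooled, so leaving out a replicate was not possible either. In each case below the cause was not tested. With each map divided by its SD at each distance, the contact of the 2 blocks was -0.758 for Grow-shA1 minus Grow and 1.35 for OIS-shA1 minus Grow-shA1, that of the ROBO1-CADM2 block with other gene-poor blocks was -0.0429 from Grow to OIS and -0.0329 from OIS to OIS-shA1, that of the SI-BCHE block was -0.237 for Grow-shA1 minus Grow, and k was 6 for OIS minus Grow. Compartment strength then changed by -0.0603 from Grow to OIS, 0.0511 from OIS to OIS-shA1, -0.000693 for Grow-shA1 minus Grow and -0.00847 for OIS-shA1 minus Grow-shA1. With unlisted pairs as 0 these were -0.0120, -0.0361, -0.0391 and -0.00901, and the SI-BCHE block gave -0.0849 for Grow-shA1 minus Grow. Limiting values to the 1st to 99th percentile gave -0.00292, and common centring -0.00119, for the strength of OIS-shA1 minus OIS. Common centring also gave -0.0252 for the ROBO1-CADM2 block in OIS-shA1 minus OIS and -0.0737 for the SI-BCHE block in Grow-shA1 minus Grow. A principal component per arm gave strengths of 0.0563 for OIS minus Grow and 0.0318 for OIS-shA1 minus Grow-shA1. With at most 3 gene starts, the ROBO1-CADM2 block gave 0.207 from Grow to OIS and -0.136 from OIS to OIS-shA1. Without its adjacent block, an alternative chosen after seeing the data, the latter was -0.131. The k was 8 with 0.5% of pairs for OIS minus Grow and 8 with 2% for each comparison of shA1 with no shA1. With means over 3 by 3 pairs it was 24 from Grow to OIS, 10 from OIS to OIS-shA1 and 25 for OIS-shA1 minus Grow-shA1.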

Other observations

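The largest increase of a single distal pair between Grow and OIS joined the 2 blocks. The pair of 83.6 to 83.8 Mb with 166.2 to 166.4 Mb scored -0.42 in Grow, 0.0047 in Grow-shA1, 2.75 in OIS and 1.65 in OIS-shA1.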
